A study of Mus musculus with 24 samples.

Results

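Dusp1, Dusp4, Dusp5 and Dusp6 encode 4 MAP kinase phosphatases. Their genes were chosen by symbol in the platform annotation, and each was measured by 1 probe set, so the set holds 4 of the 19938 genes that could be named on the arrays. The tissue was the suprachiasmatic nucleus (SCN), the hypothalamic nucleus that holds the master circadian clock of mammals. C57/BL6 mice had been kept for 3 weeks under 12 h of light and 12 h of darkness and were then moved to constant darkness. Tissue was taken every 2 h from CT 18 to CT 64, where CT is circadian time in hours. Each of the 24 time points was 1 array, made from equal amounts of RNA of 3 mice, with no replicate array at any time. The arrays were set in 2 groups of 12, a first cycle from CT 18 to CT 40 and a second cycle from CT 42 to CT 64, which cover the same 12 circadian times. All mice were of the same strain and shared the same lighting history, and the labels name no genotype or drug. The study asked which genes follow a circadian course in this tissue.

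MAP kinase phosphatases are dual-specificity enzymes that switch off MAP kinases by removing phosphate from the threonine and the tyrosine of the kinase's activation loop. DUSP1, DUSP4 and DUSP5 are nuclear enzymes, and DUSP6 is cytoplasmic. DUSP5 and DUSP6 act mainly on ERK kinases, while DUSP1 and DUSP4 also act on JNK and p38. Several of these genes are themselves switched on by ERK or by cAMP and CREB signalling, so they act as negative feedback. In the SCN, ERK signalling carries light information from the retina to the clock, and the activity of the pathway also varies over the day.

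The values are log2 intensities. The brightest of 13 SCN neuron markers were Avp (vasopressin), from 9.79 to 11.6, and Vip (vasoactive intestinal peptide), from 9.50 to 10.8. The dimmest, Prok2, ranged from 5.86 to 7.45. Markers of other hypothalamic neurons ranged from dim (Crh, 4.76 to 6.16) to bright (Oxt, 11.65 to 12.19). Among them, Pmch ran from 6.05 to 10.86 between arrays. The share of SCN cells in the tissue was not tested. The array medians lay between 6.24 and 6.36. The array at CT 40 stood apart, with a median correlation of 0.970 with the others, against 0.987 to 0.991 for the rest. The mean of 1194 olfactory and vomeronasal receptor genes, used as a measure of array background and centred on its own mean, was highest at CT 40 (0.34), CT 62 (0.19) and CT 64 (0.16). The mean of 10 measured oligodendrocyte markers, of 11 listed, ran from -0.65 at CT 40 to 0.43 at CT 20 in the first cycle and from -0.38 to 0.41 in the second. The mean of 8 measured anterior pituitary markers, of 9 listed, was highest at CT 20 (1.92). Member and named-gene calls that changed without CT 40, CT 62 and CT 64 are given both ways. In bulk tissue, fewer cells of a type and less RNA per cell cannot be told apart.

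The course of Dusp4 differed from those of the other members. Dusp4 rose at the start of the subjective day and fell at its end in both cycles, with a fitted change of 1.92-fold from trough to peak. Dusp1 had a smaller daytime excess that missed the threshold, and neither Dusp5 nor Dusp6 showed a 24-h course beyond the spread between arrays. All 4 passed the filter on dim genes (a mean log2 intensity of at least 5.52). Dusp1 had a mean of 7.52. The means of Dusp4, Dusp5 and Dusp6 were lower, at 6.09, 6.46 and 6.33 (percentiles 40.8, 48.4 and 45.6 of gene means). Whether low intensity dampened their fitted changes was not tested. A 24-h cosine was fitted to the 24 values of each gene with limma, and its moderated F test was adjusted by Benjamini-Hochberg over the 13956 tested genes. With 1 array per time, the error of every fit is the spread of the arrays around the curve. At an adjusted p of 0.05, 1 of the 4 genes, Dusp4, was called rhythmic, against 7.65% of all tested genes (1067 genes). Amplitudes are in log2 units from mean to peak, and the median amplitude of all tested genes was 0.07.

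**Figure D1:**
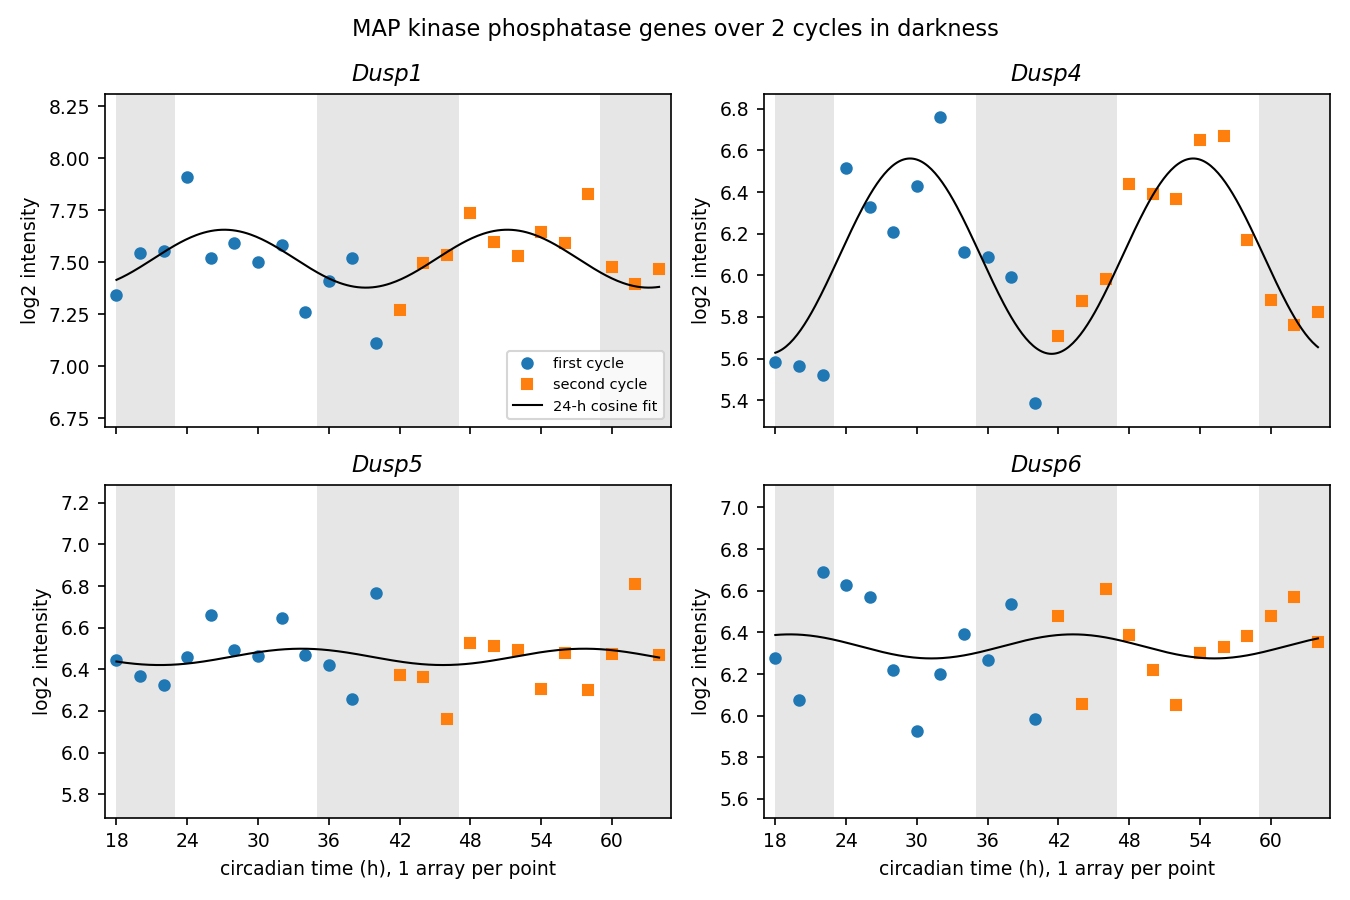
Log2 intensity of Dusp1, Dusp4, Dusp5 and Dusp6 (vertical axes) against circadian time in hours (horizontal axes), with 1 point per array, circles for the first cycle, squares for the second, grey bands for 12 to 22 h of circadian time, and the 24-h cosine fit as a line. Dusp4 swings between 5.39 and 6.76 with high points in the unshaded hours, Dusp1 varies less around 7.52, and the points of Dusp5 and Dusp6 do not follow their nearly flat lines.

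Dusp4 encodes a nuclear phosphatase of ERK, JNK and p38. Over the 12 arrays at 0 to 10 h of circadian time (the subjective day), its log2 intensity was 6.11 at the lowest, 6.41 at the median and 6.76 at the highest. Over the 12 arrays at 12 to 22 h (the subjective night), it was 5.39 at the lowest, 5.79 at the median and 6.09 at the highest. Every day array was thus above every night array. The gap between the groups was narrow: the lowest day value, at CT 34, and the highest night value, at CT 36, differed by 0.0243, less than the spread of 0.162 between arrays at one circadian time (SD over the 12 pairs of arrays 24 h apart).

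Such a split with day above night was found in 0.0143% of the tested genes, which is Dusp4 itself and Sik1, the gene of a salt-inducible kinase that restrains CREB-driven transcription. This count was made after the values of Dusp4 had been seen, and the cut suits a gene of its phase (fitted peak 5.42 h). Genes that peak at other hours can fail it by phase alone, so the share does not rank the strength of rhythms. For Sik1, the day arrays ran from 7.48 to 7.98 and the night arrays from 6.91 to 7.46. Without CT 40, CT 62 and CT 64, all 3 of them night arrays, Ogg1 also showed such a split.

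The rise of Dusp4 came at the turn from night to day. In the first cycle the 3 arrays at CT 18, CT 20 and CT 22 read 5.58, 5.57 and 5.52. At CT 24 the value was 6.52, a step of 0.99 in log2 units, or 1.99-fold, within 2 h. In the second cycle the step from CT 46 (5.98) to CT 48 (6.44) was 0.46, smaller than in the first. The last 3 night arrays were flat in the first cycle, while those of the second had already climbed from 5.71 at CT 42 to 5.88 at CT 44 and 5.98 at CT 46. The mean of the anterior pituitary markers also differed between these arrays. It was 0.87, 1.92 and 0.89 at CT 18, CT 20 and CT 22, and 0.35 at CT 24. At CT 42, CT 44 and CT 46 it was -0.35, -0.30 and -0.55, and at CT 48 it was 0.28. Its part in the size of the steps was not tested.

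Dusp4 was highest late in the subjective day. The first cycle peaked at CT 32 (6.76) and the second at CT 56 (6.67), both at 8 h of circadian time. From there it dropped by 0.65 to CT 34 and by 0.50 from CT 56 to CT 58. The lowest value of the first cycle was 5.39 at CT 40, and that of the second was 5.71 at CT 42. The range within a cycle was 2.59-fold in the first and 1.95-fold in the second.

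The fitted amplitude of Dusp4 was 0.47 ± 0.05 (SE), with a peak at 5.42 ± 0.45 h of circadian time and an adjusted p of 1.745e-05 in limma's F test. It ranked 11 by p among the tested genes, and 0.122% of them had a larger amplitude. A 24-h cosine took up 74.4% of its variance. The period of best fit was 23 h, with a 95% range of 21.3 to 24.9 h that holds 24 h. With circadian time as a factor of 12 levels in place of the cosine, its adjusted p was 0.00251, the highest mean being 6.71 at 8 h and the lowest 5.60 at 16 h. That factor called 0.709% of the tested genes and none of the other three members. Of the genes called by the cosine, 57.2% peaked between 0 and 6 h, the window in which Dusp4 falls.

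Array background had its fitted peak in the subjective night, at 13.5 h, with an amplitude of 0.08. With it as a covariate, the amplitude of Dusp4 was 0.45 (adjusted p 3.55e-05), and without CT 40, CT 62 and CT 64 it was 0.45 (adjusted p 0.000218). The mean of the 13 SCN neuron markers, among them Rasl11b, peaked at 3.37 h (amplitude 0.16). The mean of 8 meningeal fibroblast markers peaked at 16.5 h (amplitude 0.22). The part of these 2 lists in the course of Dusp4 was not tested. The anterior pituitary mean had its fitted peak at 21.4 h (amplitude 0.39), but its high values lay in the first cycle. Its highest value was 1.92 in the first cycle and 0.28 in the second. With this mean as a covariate the amplitude of Dusp4 was 0.45 (adjusted p 5.83e-05).

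Dusp1 encodes a nuclear phosphatase with a broad range of MAP kinase substrates and is a classic immediate-early gene. Its day arrays read 7.26 at the lowest, 7.59 at the median and 7.91 at the highest, and its night arrays 7.11, 7.47 and 7.55. The groups overlapped, with 11 of the 12 night arrays above the lowest day array. The medians of the 6 arrays at 0 to 4 h and at 6 to 10 h were both 7.59, and those at 12 to 16 h and at 18 to 22 h were 7.44 and 7.52. The 2 highest single values were at CT 24 (7.91) and CT 58 (7.83). The value 24 h before that last one, at CT 34, was 7.26, the second lowest of the series, and this pair differed by 0.57 while the median pair differed by 0.07.

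The fit of Dusp1 peaked at 3.14 ± 1.13 h with an amplitude of 0.14 ± 0.04, an unadjusted p of 0.00812 and an adjusted p of 0.0712 in limma's F test. This is a fitted change of 1.21-fold, close to the upper decile of amplitudes over all tested genes (0.14). Its period of best fit was 28 h, the end of the range searched, with a 95% range of 24.1 to 28 h that does not hold 24 h. The variance taken up was 33.5% at 24 h and 45.7% at 28 h. The call depended on single arrays and on the covariate: the adjusted p was 0.0373 without CT 58, 0.130 without CT 40 and 0.216 without CT 40, CT 62 and CT 64. It was 0.0115 with the oligodendrocyte marker mean as a covariate, in a fit that called 3364 genes, and 0.336 with array background as one, where the amplitude was 0.10.

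The bases before a gene's start are where CREB and clock factors are known to act on such genes, so the 250 bases before the start in RefSeq (GRCm38.p6) were searched on both strands. Promoters were matched for 3 of the 4 genes: Dusp1, Dusp5 and Dusp6. The letters searched were the cAMP response element (CRE) TGACGTCA, its shorter core TGACG, the E-box CACGTG bound by clock factors, the D-box TTATGNAA, and the CArG box bound by serum response factor. The Dusp1 promoter, on chromosome 17 on the minus strand, is shown because it holds a full CRE and an E-box. The stretch lies at chr17:26508581-26508675 and runs from -203 to -109 from the start, with matches in capitals.
Dusp1: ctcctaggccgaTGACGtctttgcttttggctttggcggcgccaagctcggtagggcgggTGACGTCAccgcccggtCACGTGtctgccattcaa
The CRE spans -143 to -136, and the E-box spans -126 to -121. Of the 3 copies of the core, 2 lie within the CRE and the third starts at -191. A CRE was found in 1.55% of 32851 promoters of the same length, a core in 17.8% and an E-box in 6.02%. These are matches of letters and not measured sites.

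Dusp5 encodes the nuclear phosphatase that is selective for ERK. Its day arrays read 6.30 at the lowest, 6.48 at the median and 6.66 at the highest, and its night arrays 6.16, 6.40 and 6.81. The groups overlapped, and the night group held both the lowest and the highest value. The amplitude was 0.04 ± 0.04 (adjusted p 0.775 in limma's F test), and a 24-h cosine took up 3.51% of its variance.

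The 2 highest values of Dusp5 were at CT 62 (6.81) and CT 40 (6.76). These are also the 2 arrays with the highest array background, and at CT 40 the oligodendrocyte marker mean was at its lowest. Dusp5 rose by 0.51 from CT 38 to CT 40 and dropped by 0.39 to CT 42. The values 24 h apart at CT 38 (6.26) and CT 62 (6.81) differed by 0.55, the largest such gap for this gene. Without CT 40, CT 62 and CT 64 the amplitude was 0.09, with a peak at 4.90 h and an adjusted p of 0.264. With array background as a covariate it was 0.08 with a peak at 3.20 h (adjusted p 0.397), against 9.68 h in the fit without covariates. With the oligodendrocyte marker mean as a covariate, its amplitude was 0.06 with a peak at 12.0 h (adjusted p 0.280 in limma's F test). Dusp5 thus passed no test of a 24-h course. Its fitted peak time moved earlier in the first 2 of these alternative fits and later in the oligodendrocyte one, so it was not stable.

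**Figure D2:**
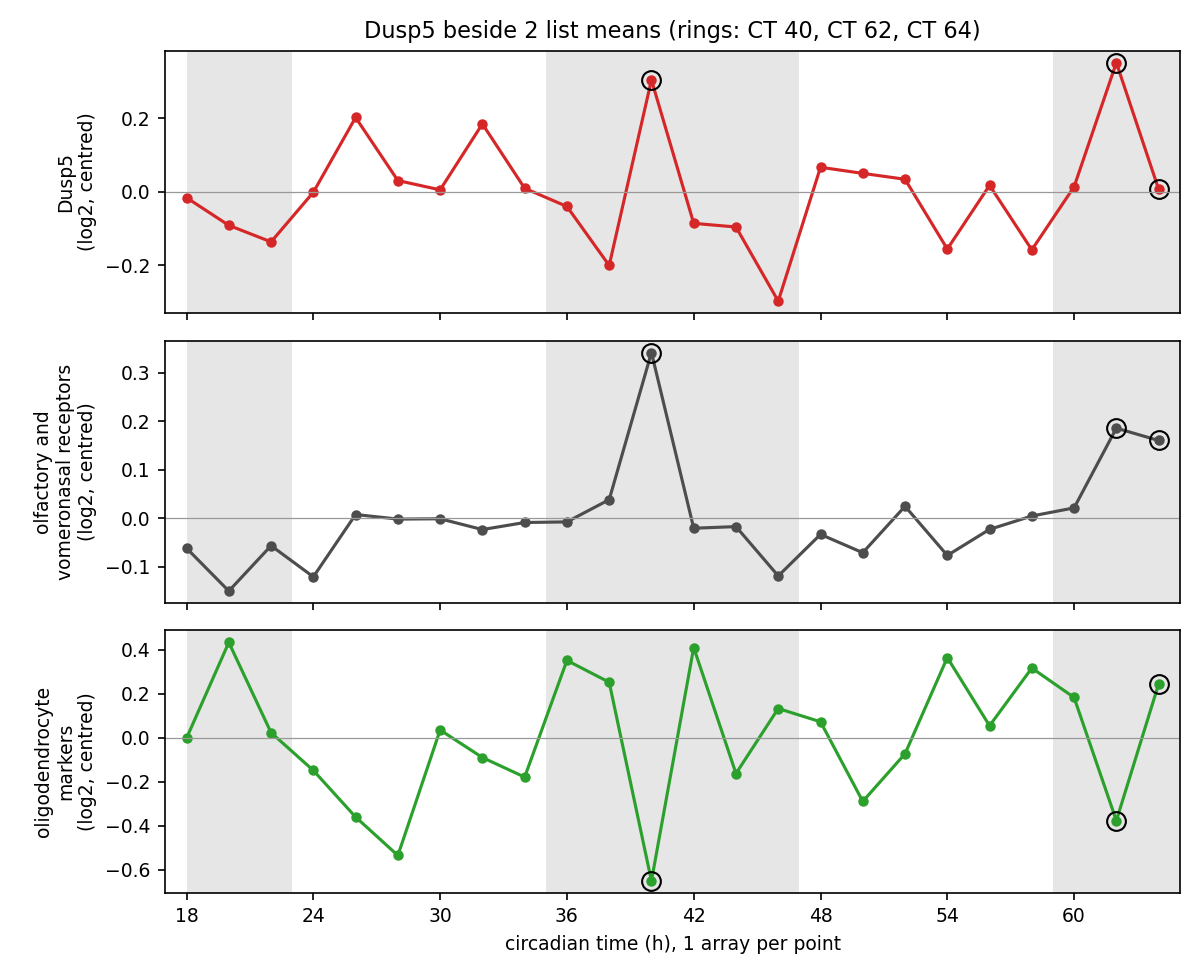
Dusp5 (top), the mean of olfactory and vomeronasal receptor genes (middle) and the mean of oligodendrocyte markers (bottom), each in log2 units centred on its own mean, against circadian time in hours, with 1 point per array, grey bands for 12 to 22 h, and rings at CT 40, CT 62 and CT 64. At CT 40 and CT 62 Dusp5 and the receptor mean (0.34 and 0.19) are both at their highest, while the oligodendrocyte mean is at its lowest at CT 40 (-0.65).

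The Dusp5 promoter, on chromosome 19 on the plus strand, is shown because it holds 2 CArG boxes end to end, elements known from genes that ERK switches on through serum response factor. The stretch lies at chr19:53529051-53529106 and runs from -94 to -39, with matches in capitals.
Dusp5: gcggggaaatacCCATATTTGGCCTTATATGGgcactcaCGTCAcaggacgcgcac
The CArG boxes span -82 to -73 and -72 to -63, and a CRE core on the other strand spans -55 to -51. At least 1 CArG box was found in 1.47% of promoters, and 2 or more in 6 promoters (0.0183%). None of the 5 sets of letters was found in the searched bases of Dusp6.

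Dusp6 encodes the cytoplasmic phosphatase of ERK and is a common readout of ERK activity. Its day arrays read 5.93 at the lowest, 6.32 at the median and 6.63 at the highest, and its night arrays 5.98, 6.42 and 6.69. The groups overlapped throughout, with all 12 night arrays above the lowest day array. The amplitude at 24 h was 0.06 ± 0.06, with an adjusted p of 0.741.

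Dusp6 moved more between neighbouring arrays than its 24-h fit shows. It rose by 0.61 (1.53-fold) from CT 20 to CT 22 and by 0.55 (1.47-fold) from CT 44 to CT 46, the same circadian step in both cycles. After CT 22 it fell in every step to CT 30, from 6.69 to 5.93, and after CT 46 it fell in every step to CT 52, from 6.61 to 6.05. Like the highs at CT 22 and CT 46, a second high lay in the subjective night in both cycles. It was at CT 38 (6.53) and at CT 62 (6.57), an array of high background (0.19). The largest drop, of 0.55 from CT 38 to CT 40, ended on the array that stood apart from the others. In the factor fit the mean was highest at 22 h (6.65) and lowest at 20 h (6.07), with an unadjusted p of 0.0113 and an adjusted p of 0.154.

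A 12-h cosine, added to the 24-h one, gave Dusp6 an amplitude of 0.18 ± 0.05 with peaks 12 h apart, the first at 11.8 h. The unadjusted p was 0.00426 and the adjusted p 0.125, so it was not called. Of the 4 genes, none passed this test, against 0.0358% of all tested genes (5 genes). The 12-h amplitude was 0.10 ± 0.04 for Dusp5 (adjusted p 0.254), 0.09 for Dusp1 (0.275) and 0.04 for Dusp4 (0.852).

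The second cycle lay a full day deeper in darkness than the first, which allowed the levels of both days to be compared. In limma's test of a second-cycle term, none of the 4 genes was called, and the share over all tested genes was 0% (1216 genes had an unadjusted p under 0.05). The second cycle minus the first was 0.06 ± 0.06 for Dusp1, 0.10 ± 0.08 for Dusp4, -0.04 ± 0.06 for Dusp5 and 0.04 ± 0.08 for Dusp6. The second value was the higher in 6, 8, 4 and 6 of the 12 pairs of arrays, in the same order. No level thus differed between the cycles beyond the spread around the fit.

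The rhythm itself was compared between the cycles with an interaction term. None of the 4 genes was called, and again 0% of the tested genes were (338 genes had an unadjusted p under 0.05). For Dusp4, the amplitude was 0.51 ± 0.08 with a peak at 5.96 ± 0.57 h in the first cycle and 0.44 ± 0.08 with a peak at 4.79 ± 0.66 h in the second. For Dusp1 these were 0.18 ± 0.06 at 1.69 h and 0.13 ± 0.06 at 5.20 h. The fitted peak of Dusp6 lay at 23.1 h in the first cycle and at 15 h in the second, with amplitudes of 0.12 and 0.11.

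The 24-h courses of the members were then set against each other, each centred on its own mean, with a permutation test (100000 permutations of the 24 times) for each of the 6 pairs and Benjamini-Hochberg adjustment over the 6. Dusp4 differed from each of the others. The amplitude of the difference was 0.36 ± 0.05 against Dusp1 (adjusted p 0.00012), 0.45 ± 0.08 against Dusp5 (adjusted p 0.00014) and 0.52 ± 0.08 against Dusp6 (adjusted p 0.00012). Dusp1 and Dusp6 differed by 0.17 ± 0.06, which missed the threshold (adjusted p 0.0582). Dusp1 and Dusp5 differed by 0.15 ± 0.07 (adjusted p 0.173), and Dusp5 and Dusp6 by 0.09 ± 0.08 (adjusted p 0.557). The pair Dusp1 and Dusp6 was called when any 1 of the arrays at CT 20, CT 26, CT 34 or CT 44 was left out, with adjusted p between 0.0171 and 0.0481.

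Dusp1 and Dusp4 varied together over the 24 arrays, with Pearson's r of 0.608 (permutation p 0.00139, adjusted over 6 pairs 0.00834) and Spearman's rho of 0.643 (permutation p 0.00084, adjusted 0.00504). Without CT 40 and CT 24, the arrays farthest from the median of Dusp1, r was 0.483. It was 0.555 within the first cycle and 0.674 within the second. These arrays are points of one time course and share its daily order, which the permutations ignore. The p-values treat the arrays as exchangeable, so they do not speak to a link beyond that order. Pearson's r with array background was -0.552 for Dusp1 and -0.354 for Dusp4, and its part was not tested. The other 5 pairs had Pearson's r between -0.311 and 0.241, with adjusted permutation p of at least 0.417.

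Over the same 24 arrays, the 5 genes with the highest Pearson's r with each member were listed, as a description. For Dusp4 they were Sik1 (0.905), Rasl11b, a Ras-like gene enriched in the SCN (0.877), Exosc1 (0.845), Plk2, a polo-like kinase gene induced by neuronal activity (0.839), and Nr1d1, which encodes the clock repressor REV-ERB alpha (0.830). All 5 were called rhythmic, with peaks between 3.89 and 5.64 h and amplitudes from 0.16 for Exosc1 to 0.62 for Rasl11b. Without CT 40, CT 62 and CT 64, r lay between 0.789 for Nr1d1 and 0.889 for Sik1. Promoters were matched for 4 of the 5 (all but Sik1): that of Plk2 holds 1 CRE, and those of Rasl11b, Exosc1 and Nr1d1 hold none of the letters searched.

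**Figure D3:**
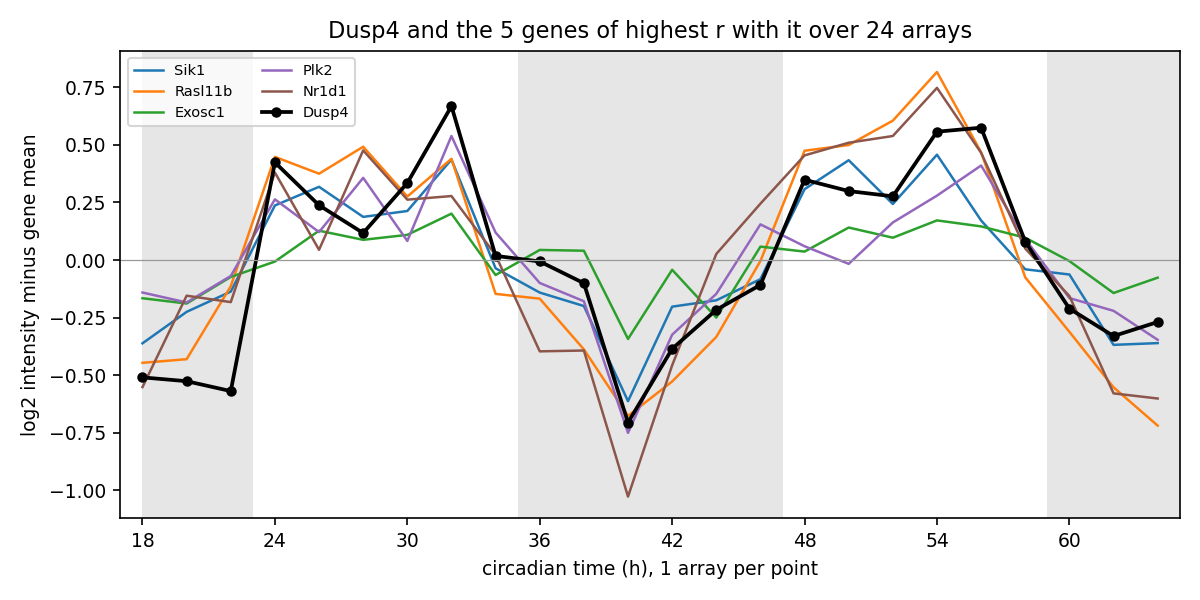
Log2 intensity minus the gene's own mean for Dusp4 (black, with points) and the 5 genes of highest r with it (coloured lines), against circadian time in hours, with 1 array per point and grey bands for 12 to 22 h. All 6 genes are above their mean at CT 32 and CT 54 and below it at CT 40, and Exosc1 has the smallest swing.

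For Dusp1 the nearest genes were Ubap2l (0.784), Phc1 (0.782), Nagk (0.781), Nr4a1 (0.775) and Zdhhc5 (0.766). Nr4a1, an immediate-early nuclear receptor gene, peaked at 2.43 h (amplitude 0.17), and its adjusted p of 0.0832 missed the threshold like that of Dusp1. The searched bases of Nr4a1 hold 4 copies of the CRE core, and those of Phc1 hold 1. Ubap2l, with 2 promoters, has up to 2 copies of the core and up to 3 E-boxes in a promoter. Those of Nagk and Zdhhc5 hold none of the letters searched. At least 2 copies of the core were found in 3.90% of promoters. For Dusp5 the nearest genes were Olfr713 (0.778), Carmil2 (0.767), Hand2 (0.764), Col6a3 (0.762) and Klk10 (0.742), the first of which is one of the receptor genes used to measure array background. For Dusp6 they were Dguok (0.772), Mrps12 (0.730), Rnaseh2c (0.729), Mfsd2a (0.708) and Anapc16 (0.706). None of the 15 genes nearest to Dusp1, Dusp5 and Dusp6 was called rhythmic.

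Other dual-specificity phosphatase genes were read from the same 24-h fit. The list was Dusp2, Dusp3, Dusp7, Dusp8, Dusp9, Dusp10, Dusp14, Dusp16, Dusp19, Dusp22 and Dusp26. Of these 11, all tested, 2 were called, against 7.65% of all tested genes. Both peaked between 0 and 6 h, as did 57.2% of all called genes. Dusp8, which encodes a phosphatase of JNK and p38, peaked at 1.70 h (amplitude 0.25 ± 0.05, adjusted p 0.0107). Dusp16, another phosphatase gene of that branch, peaked at 5.06 h (amplitude 0.18 ± 0.04, adjusted p 0.0319). With single arrays left out, Dusp16 lost its call without CT 28, CT 40, CT 54, CT 62 or CT 64 (adjusted p 0.0508 to 0.0658). Without CT 40, CT 62 and CT 64 together neither was called: their adjusted p was 0.0570 and 0.162, and the amplitude of Dusp16 was 0.10. With array background as a covariate the adjusted p of Dusp8 was 0.0958. The median amplitude of the 11 genes was 0.08, against 0.07 over all tested genes. Of the 15 dual-specificity phosphatase genes in all, Dusp4 had the largest amplitude.

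**Figure D4:**
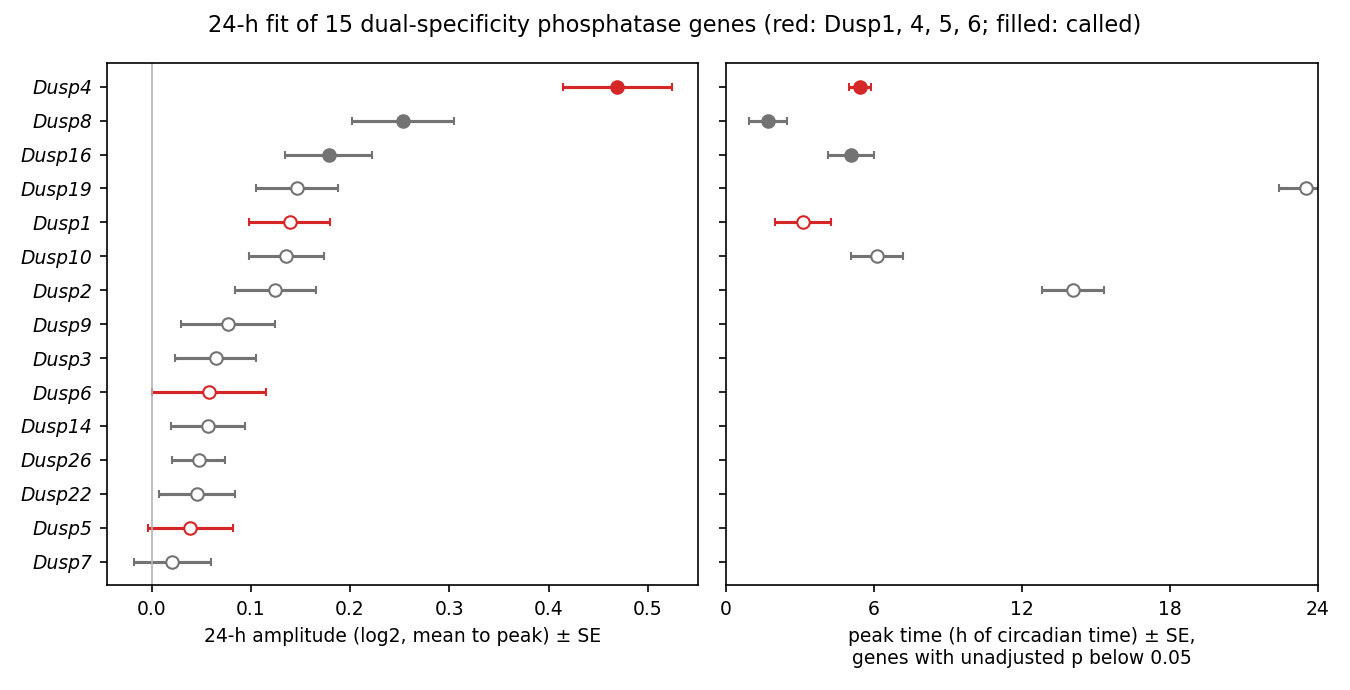
24-h amplitude in log2 units (left) and peak in hours of circadian time (right, for genes with an unadjusted p below 0.05) for 15 dual-specificity phosphatase genes, with bars for ± 1 SE, red for Dusp1, Dusp4, Dusp5 and Dusp6, and filled points for genes called at an adjusted p of 0.05. Dusp4 (0.47) stands above Dusp8 (0.25) and Dusp16 (0.18), Dusp1 (0.14) lies in the middle group, and Dusp6 (0.06) and Dusp5 (0.04) are near 0.

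The kinases that MAP kinase phosphatases act on, and their activators, were called at shares to be read against the same 7.65%. In the cascade from Ras to ERK, 15 of 22 listed genes were tested and 2 were called: Ksr2, which encodes a scaffold of the cascade (amplitude 0.14, peak 2.44 h, adjusted p 0.0154), and Rasgrp1, which encodes an activator of Ras (0.22, 0.205 h, adjusted p 0.0182). The call of Ksr2 was lost without CT 40, CT 62 and CT 64 (adjusted p 0.0939), and that of Rasgrp1 with array background as a covariate (amplitude 0.14, adjusted p 0.162). Of 16 tested JNK, p38 and ERK5 kinases, Mapk10, which encodes the neuronal JNK3, was called (0.21, 2.52 h, adjusted p 0.0439). With single arrays removed in turn, its call held for 9 of the 24, and the highest adjusted p was 0.0896, without CT 62. Its amplitude was 0.11 without CT 40, CT 62 and CT 64 (adjusted p 0.0855) and 0.08 with array background as a covariate (adjusted p 0.390). The median amplitudes were 0.08 and 0.06.

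Other feedback inhibitors of Ras and ERK, among them the Sprouty and Spred genes, had 0 calls among 14 tested genes in limma's test, with an unadjusted p under 0.05 in 2. The smallest p was that of Spred3 (0.12, 5.27 h, adjusted p 0.0642). Spred3 was called without CT 40 (adjusted p 0.0459), without CT 40, CT 62 and CT 64 (0.17, adjusted p 0.0229) and with array background as a covariate (0.15, adjusted p 0.0353). The list had 0 to 4 calls over 12 alternatives. Of 21 tested genes of ERK-induced transcription, a list of factors as well as targets, 2 were called, again beside 7.65% of all genes. Ier5, an immediate-early gene, had a peak in the late night (0.17, 21.02 h, adjusted p 0.0129). The other was Elk1, which encodes a factor that ERK phosphorylates (0.19, 1.75 h, adjusted p 0.0332). Without CT 40, CT 62 and CT 64, the adjusted p of Elk1 was 0.0770, and with array background as a covariate its amplitude was 0.08 (adjusted p 0.401). Elk1 also lost its call without CT 24, CT 28, CT 36, CT 38, CT 48 or CT 62 (adjusted p 0.0509 to 0.0651). Of 5 further phosphatase genes listed for MAP kinases (Ptpn5, Ptpn7, Ptprr, Ppm1a and Ppm1d), 1 was called, beside the same 7.65%. It was Ptpn5, which encodes the tyrosine phosphatase STEP (0.15, 4.31 h, adjusted p 0.0277, and 0.0816 without CT 40, CT 62 and CT 64). The median amplitudes of these lists were 0.08, 0.07 and 0.04.

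Core clock genes served as a reference for the size of a daily change in these arrays. Of 18 tested, 15 were called, with a median amplitude of 0.20. The amplitude of Dusp4 (0.47) stood beside those of Per2 (0.45, peak 9.53 h) and Dbp (0.43, peak 7.29 h) and below that of Nr1d1 (0.57, peak 3.89 h), while Nfil3, a clock-controlled repressor, peaked at night (0.27, 19.1 h). No gene of these lists was called for a change between cycles or in rhythm.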

How the data were processed

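Each array measured amplified, biotin-labelled SCN RNA (Pico WTA V2 and Encore kits, per the labels' protocols). The deposited values are log2 intensities that the authors made with RMA 1.3.1.187 in Affymetrix Expression Console, per the submitters' processing notes. Other settings are not given in the sources used here. As usually run, RMA brings arrays to one distribution of probe values, which would hide a change shared by all genes.

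Of 35556 probe sets, 23410 were in the annotation table, 21789 with 1 symbol and 1621 with several, which were left unnamed. Entrez numbers of 21698 matched RefSeq (GRCm38.p6), and no symbol changed. A gene was its probe set of highest mean. Genes under the 30th percentile of means were not tested. Fits used limma 3.58.1 in R 4.3.3; other steps used Python 3.11.15 with NumPy 2.4.6 and pandas 2.3.3, and figures matplotlib 3.10.9. Tests were tried on simulated data first.

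Members and lists were chosen with earlier results of these data known. Named were the members and, from each list, up to 4 called genes of smallest adjusted p, or the 1 of smallest p where none was called, plus the 5 genes of highest r per member. Sik1 and Ogg1 in the day and night split, and motif matches, were picked after values were seen. Precision is limited by the number of arrays. Alternatives covered filters, normalisation, probe sets, arrays left out, covariates, weights, prior, shape, period, scale and threshold.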

Additional observations from a re-analysis of the deposited data

How the results depend on the processing

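Dusp4 was called rhythmic under every alternative in which it was tested, with an adjusted p of up to 0.00251 in limma's F test. It was also called with each array left out in turn (amplitude 0.445 to 0.498, adjusted p up to 8.68e-05). The filter at the 50th percentile removed Dusp4, Dusp5 and Dusp6 and gave no value for them. For Dusp1 the oligodendrocyte covariate gave 0.161 (called), and leaving out 1 array gave 0.114 to 0.151. The Dusp1 and Dusp6 difference was 0.960 SD units and called (adjusted p 0.0324) when each was divided by its SD, and 0.154 to 0.205 with 1 array left out. Directions turned only in uncalled values: the change between cycles of Dusp6 was -0.0113 without CT 40, CT 62 and CT 64 and -0.0244 with array weights, that of Dusp5 was 0.0143 with the oligodendrocyte covariate, and with array background as a covariate the 24-h amplitude of Dusp5 was 0.0777 (peak at 3.20 h in place of 9.68 h) and the 12-h amplitude of Dusp4 0.0341 (1.69 h in place of 10.6 h). The cause was not tested.

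The count of 1067 rhythmic genes became 679 without CT 40, CT 62 and CT 64, 534 with array background and 3364 with oligodendrocyte markers as a covariate, 170 at a threshold of 0.01, 99 with time as a factor and 704 without CT 28. Changes between cycles rose from 0 to 66 with array background, 5 with array weights and 1 without CT 54. The 12-h count of 5 ran from 0 to 11. Of 13 genes named from lists, 4 (Per2, Dbp, Nr1d1 and Nfil3) kept their call in the 12 alternatives run for them and with each array left out. The other dual-specificity phosphatases listed had 0 to 4 calls.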
